A study of Solanum lycopersicum with 9 samples.

Results

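The WRKY transcription factor family of tomato was examined across 9 RNA-Seq libraries. Members were taken as every row of the deposited expression table whose ID begins with one of 41 listed WRKY locus IDs, and all 41 loci were found. They were represented by 50 gene models among the 33989 in the table, since 9 loci had 2 gene models each and 32 had 1. By their IDs the loci lie on 11 chromosomes, with 7 on chromosome 8, 6 each on chromosomes 2 and 7, and none on chromosome 11. Only WRKY-B, Solyc02g071130, has a name in the sources used here, so the other members are given by their IDs, with no role assigned to any of them. The study's list of genes bound and regulated by WRKY-B holds Solyc02g093050.3 as upregulated. It also holds Solyc07g051840.3, Solyc08g062490.3 and Solyc08g081610.3 as downregulated. The binding was not examined here. Of these, only Solyc07g051840.3 has an adjusted p in that list under the study's stated threshold of 0.05. By the thresholds used here, Solyc02g093050.3 and Solyc07g051840.3 differed between OE and CK2 and not between OE and CK1. Solyc08g062490.3 and Solyc08g081610.3 differed in both comparisons.

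WRKY proteins are a large family of plant transcription factors named after the conserved amino acids at the start of their DNA-binding domain, which also holds a zinc finger. They bind W-box elements in promoters, including those of WRKY genes themselves, and individual members activate or repress transcription. The family is best known for roles in defence, wounding and abiotic stress, and some members act in senescence, trichome formation, flowering and shoot branching. WRKY-B is the member whose effect on axillary bud growth the study set out to examine.

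The libraries formed 3 sets of 3. The OE set (OE1, OE30 and OE9) was taken as the WRKY-B-GFP plants, in which a 35S promoter, active in most plant tissues, drives WRKY-B joined to green fluorescent protein, because the study names a ChIP-Seq sample of these plants OE_9. The control sets were CK1 and CK2. The labels give CK1 as bud of the cultivar monomaker, CK2 as bud of Compound raceme, and OE as flower of Compound raceme. The study's methods describe instead axillary buds at node 6 of plants 45 days old, wild type or WRKY-B-GFP, all in the cultivar Ailsa Craig, with 10 plants pooled per replicate and 3 biological replicates. Cultivar and tissue are therefore not settled. By the labels the transgene cannot be told apart from tissue in the comparison with CK2, nor from tissue and cultivar in the comparison with CK1. Whether the names OE1, OE30 and OE9 stand for separate transgenic lines is not stated, and all p-values measure only the spread between these libraries.

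Levels are in FPKM (fragment counts corrected for transcript length and library size), which sets levels of different genes on a scale per length. Total reads per library are not given, so the depth is unknown. The most frequent ratio of low values to those of CK1_1 was 1.00 to 1.03, read in steps of 0.04 on the log2 scale. Libraries of a control set were closely alike (Pearson's r across 26296 gene models, which are not independent replicates, 0.974 to 0.977), and OE libraries less so (0.948 to 0.960). Between the control sets r was 0.70 to 0.73. Between OE and the controls it was 0.75 to 0.80 for CK1 and 0.60 to 0.63 for CK2. Tissue labels were checked with lists written from general knowledge of tomato, since no table used here pairs IDs with names. All 8 loci of a floral organ MADS-box list were at 1 FPKM or more in every library, and their summed level was 1337 to 1359 FPKM in CK1, 1722 to 1809 in CK2 and 745 to 825 in OE. A list of 4 axillary bud loci summed to 2.44 to 3.20 FPKM in CK1, 1.08 to 1.82 in CK2 and 15.6 to 17.9 in OE. In OE all 4 of these loci were at 1 FPKM or more in every library, while 2 of them in CK1 and 3 in CK2 were below it in every library. By locus, all OE libraries were below every control in 7 of the 8 floral loci and above every control in 3 of the 4 bud loci. The remaining floral locus, Solyc05g056620, went the other way, with 137 to 154 FPKM in OE, 45.7 to 48.3 in CK1 and 32.8 to 33.7 in CK2. The bud list was written to include BL and BRC1b, which the study reports as upregulated in WRKY-B-GFP plants, and BL as a direct target of WRKY-B. For this list, tissue and transgene therefore cannot be told apart. The part of the floral and bud loci in the WRKY differences was not tested. In such bulk samples, fewer cells of a type and less RNA per cell cannot be told apart.

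Family members spanned a wide range of levels in all sets. Over the 9 libraries, 12 gene models had a mean of 10 FPKM or more, 28 lay between 1 and 10 FPKM, and 10 lay below 1 FPKM. The highest was Solyc09g015770.3, which measured 56.0, 53.6 and 53.0 FPKM in CK1, 31.3, 29.6 and 30.8 in CK2, and 54.6, 51.5 and 60.0 in OE1, OE30 and OE9. CK2 was low for this gene, while CK1 and OE overlapped. Solyc01g095630.3 had the reverse order of controls, with 43.1, 42.2 and 40.4 FPKM in CK1 and 51.1, 51.2 and 52.3 in CK2. Its OE libraries, at 37.6, 33.2 and 56.7 FPKM, reached from below all controls to above them. Solyc08g006320.3 measured 32.5 to 34.5 FPKM in CK1, 25.8 to 28.3 in CK2 and 34.6, 30.9 and 50.9 in OE. None of these 3 abundant members differed by 2-fold or more between any pair of sets. The other gene models among the 5 highest means were WRKY-B and Solyc07g066220.3.1, whose means rest on the OE set.

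**Figure D1:**
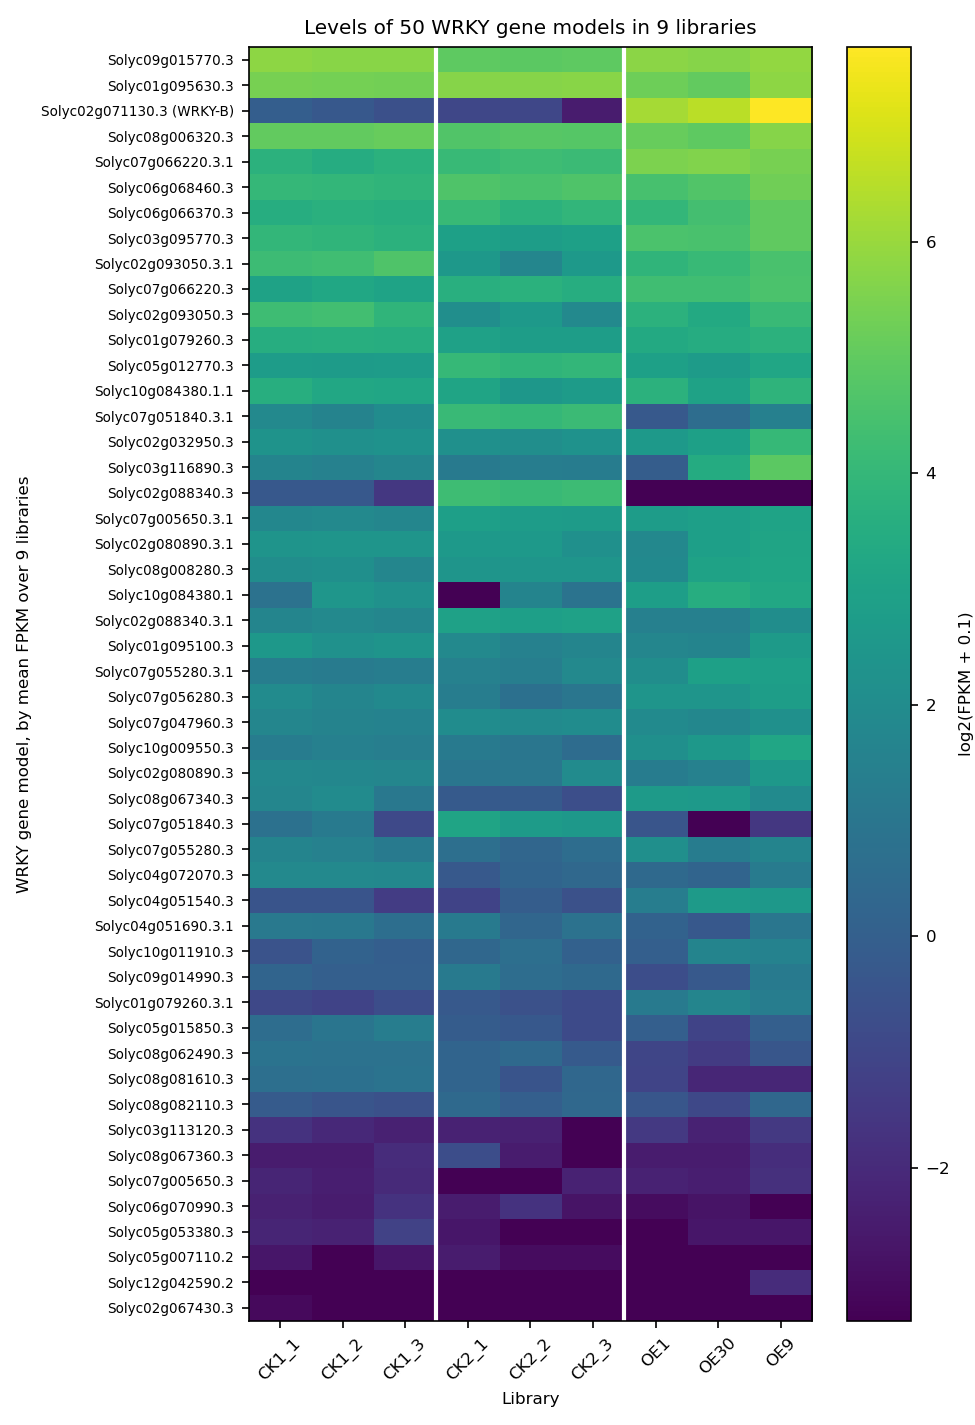
Levels of the 50 WRKY gene models (rows, by mean FPKM) in the 9 libraries (columns), coloured by log2(FPKM + 0.1). The 3 most abundant members other than WRKY-B are high in all 3 sets, and 8 gene models did not reach 0.5 FPKM in 3 libraries. WRKY-B stands out in the OE libraries and is low in the controls.

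At the other end, 8 gene models did not reach 0.5 FPKM in at least 3 libraries, and 7 of them were below 0.5 FPKM in every library. Solyc02g067430.3 was listed at 0 in all libraries except CK1_1 (0.02 FPKM), and Solyc12g042590.2 in all except OE9 (0.16 FPKM). Solyc08g067360.3 lay between 0 and 0.17 FPKM in all libraries except CK2_1 (0.50 FPKM). By its ID, the nearest listed member is Solyc08g067340.3, which reached 6.26 FPKM in OE1. The remaining 5 of these gene models, Solyc03g113120.3, Solyc05g007110.2, Solyc05g053380.3, Solyc06g070990.3 and Solyc07g005650.3, lay between 0 and 0.35 FPKM. None of the 8 passed the filter on low values, so they entered only the fit without that filter, and Solyc07g005650.3 also its locus sum.

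WRKY-B (Solyc02g071130.3) gave the check of the OE label. It measured 0.87, 0.71 and 0.55 FPKM in CK1, 0.40, 0.40 and 0.08 in CK2, and 74.0, 93.5 and 205.7 in OE1, OE30 and OE9. Every OE library lay far above the controls, where WRKY-B was among the least abundant members tested. Reads from the native gene and from the transgene are counted together in this value. By limma-trend, with Benjamini-Hochberg adjustment over all gene models tested, OE exceeded CK2 by 8.31 (standard error 0.54, adjusted p = 3.89e-05) and CK1 by 7.14 (standard error 0.39, adjusted p = 4.13e-05) in log2(FPKM + 0.1). An exact two-sided permutation test of 3 libraries against 3 gave p = 0.1 for each, the smallest value it can give.

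WRKY-B made up part, but not all, of a higher summed level of the family in OE. The 50 gene models summed to 323 to 339 FPKM in the 6 control libraries, and to 463, 509 and 776 in OE1, OE30 and OE9. With WRKY-B left out, the sums were 323 to 339 FPKM in the controls and 389, 415 and 570 in OE. Of these sums, the locus Solyc07g066220 held 65.8, 67.8 and 66.5 FPKM in OE1, OE30 and OE9, and 20.6 to 31.9 in the controls. The summed level of all gene models in the table went the other way, with 743707 to 769380 FPKM in the controls and 615715 to 684351 in OE. Scaling each library to a sum of 1000000 therefore raises the OE values relative to the controls.

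In 7 gene models, WRKY-B and 6 others, all 3 OE libraries lay above all 6 control libraries and OE was called higher against each control set. These were 17.1% of the 41 members tested in both comparisons, beside 15.7% of all 23233 gene models tested in both. Calls, made with limma-trend on log2(FPKM + 0.1), needed at least a 2-fold difference together with a Benjamini-Hochberg adjusted p below 0.05 over all gene models tested. The comparisons with CK1 and CK2 share the OE libraries and are not independent of each other.

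Solyc07g066220.3.1 (SL3.0 chromosome 7, 67825464 to 67831433, minus strand) was the most abundant of these after WRKY-B. It measured 13.4, 11.2 and 13.1 FPKM in CK1, 16.8, 19.0 and 17.9 in CK2, and 46.2, 47.9 and 42.8 in OE1, OE30 and OE9. The lowest OE library was more than 2-fold above the highest control. The difference was 1.35 (standard error 0.09, adjusted p = 4.31e-05) against CK2 and 1.85 (standard error 0.10, adjusted p = 4.47e-05) against CK1 on the log2 scale, by limma-trend. The other gene model at this locus, Solyc07g066220.3, was also above every control in OE, with 19.6, 19.9 and 23.7 FPKM against 8.11 to 12.9 in the controls. It was called against CK1 (1.28, standard error 0.12, adjusted p = 0.000271 by limma-trend) and was under 2-fold against CK2 (0.78).

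Solyc04g051540.3 was low in both control sets and higher in OE. Its levels were 0.62, 0.62 and 0.29 FPKM in CK1, 0.37, 0.85 and 0.56 in CK2, and 2.44, 6.25 and 5.83 in OE1, OE30 and OE9. The control sets overlapped, and OE1 was the lowest OE library but still above all of them. The log2 difference was 2.78 (standard error 0.45) against CK2 and 2.96 (standard error 0.45) against CK1, with adjusted p = 0.00177 for each by limma-trend.

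Solyc10g009550.3 measured 2.37, 2.66 and 2.55 FPKM in CK1, 2.16, 1.87 and 1.4 in CK2, and 4.33, 5.80 and 9.02 in OE1, OE30 and OE9. All OE libraries were high, OE9 most of all. The log2 difference was 1.72 (standard error 0.31, adjusted p = 0.00298) against CK2 and 1.24 (standard error 0.28, adjusted p = 0.00859) against CK1 by limma-trend. Without OE9 the difference from CK1 fell under 2-fold, at 0.96.

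Solyc01g079260.3.1 (SL3.0 chromosome 1, 78215921 to 78218540, plus strand) measured 0.43, 0.37 and 0.50 FPKM in CK1, 0.73, 0.57 and 0.46 in CK2, and 2.21, 3.14 and 2.40 in OE. It was higher in each OE library than in any control, by 1.97 (standard error 0.24, adjusted p = 0.000583) against CK2 and 2.32 (standard error 0.24, adjusted p = 0.000362) against CK1 on the log2 scale by limma-trend. This gene model held little of its locus, however. Solyc01g079260.3 measured 11.43, 12.01 and 11.46 FPKM in CK1, 7.76, 6.86 and 6.89 in CK2, and 10.1, 11.3 and 13.3 in OE. For the sum of both gene models the log2 difference was 0.85 against CK2 and 0.22 against CK1, neither of them called.

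Solyc07g055280.3.1 (SL3.0 chromosome 7, 63495479 to 63499593, plus strand) measured 2.45, 2.32 and 2.45 FPKM in CK1, 2.80, 2.51 and 3.48 in CK2, and 4.16, 7.44 and 7.22 in OE1, OE30 and OE9. OE1 was nearest to the controls. The log2 difference was 1.30 against CK1 (standard error 0.25, adjusted p = 0.00482) and 1.04 against CK2 (standard error 0.27, adjusted p = 0.0136) by limma-trend. The call against CK2 was lost without OE30 (0.89), OE9 (0.92), CK2_1 (1.01, adjusted p = 0.0527) or CK2_2 (0.94), and also with median-ratio scaling (0.73) or log2(FPKM + 1) (0.86). The other gene model, Solyc07g055280.3, measured 2.18 to 3.07 FPKM in CK1 and 1.15 to 1.52 in CK2. In OE1, OE30 and OE9 it measured 4.36, 2.34 and 2.98, highest where Solyc07g055280.3.1 was lowest. It was called against CK2 (1.14, standard error 0.27, adjusted p = 0.00948 by limma-trend) and not against CK1 (0.24). The locus sum gave 1.13 against CK2, called, and 0.89 against CK1, not called.

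Solyc10g084380.1 changed its call under the most alternatives of these members. It was listed at 0 in CK2_1, with 3.03 and 1.75 FPKM in the other CK2 libraries, 1.69, 5.47 and 4.69 in CK1, and 7.20, 11.6 and 9.58 in OE1, OE30 and OE9. The log2 difference was 3.49 (standard error 1.26, adjusted p = 0.0460) against CK2 and 1.37 (standard error 0.45, adjusted p = 0.0372) against CK1 by limma-trend. The size against CK2 depended on the library listed at 0 and on the pseudocount. Without CK2_1 it was 1.96 (standard error 0.33, adjusted p = 0.00662 by limma-trend), and with log2(FPKM + 1) it was 2.21, both still called. Leaving out CK2_3 (4.07), OE1 (3.68), OE30 (3.33) or OE9 (3.47) ended the call against CK2, as did pooling the controls (2.43), median-ratio scaling (3.23) or dropping the filter on low values (adjusted p = 0.0979 by limma-trend). Leaving out CK1_1 (0.86), CK1_3 (1.57), OE1 (1.55), OE30 (1.21) or OE9 (1.35) ended that against CK1, as did fitting all 9 libraries together (adjusted p = 0.324), median-ratio scaling (1.24) or dropping the filter (adjusted p = 0.0820), by limma-trend. The other gene model of the locus, Solyc10g084380.1.1, measured 9.14 to 11.9 FPKM in CK1, 5.63 to 8.63 in CK2, and 13.2, 7.97 and 14.2 in OE. Summed over the locus, the log2 difference was 1.31 against CK2 (standard error 0.11, adjusted p = 8.03e-05 by limma-trend) and 0.58 against CK1, under 2-fold.

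**Figure D2:**
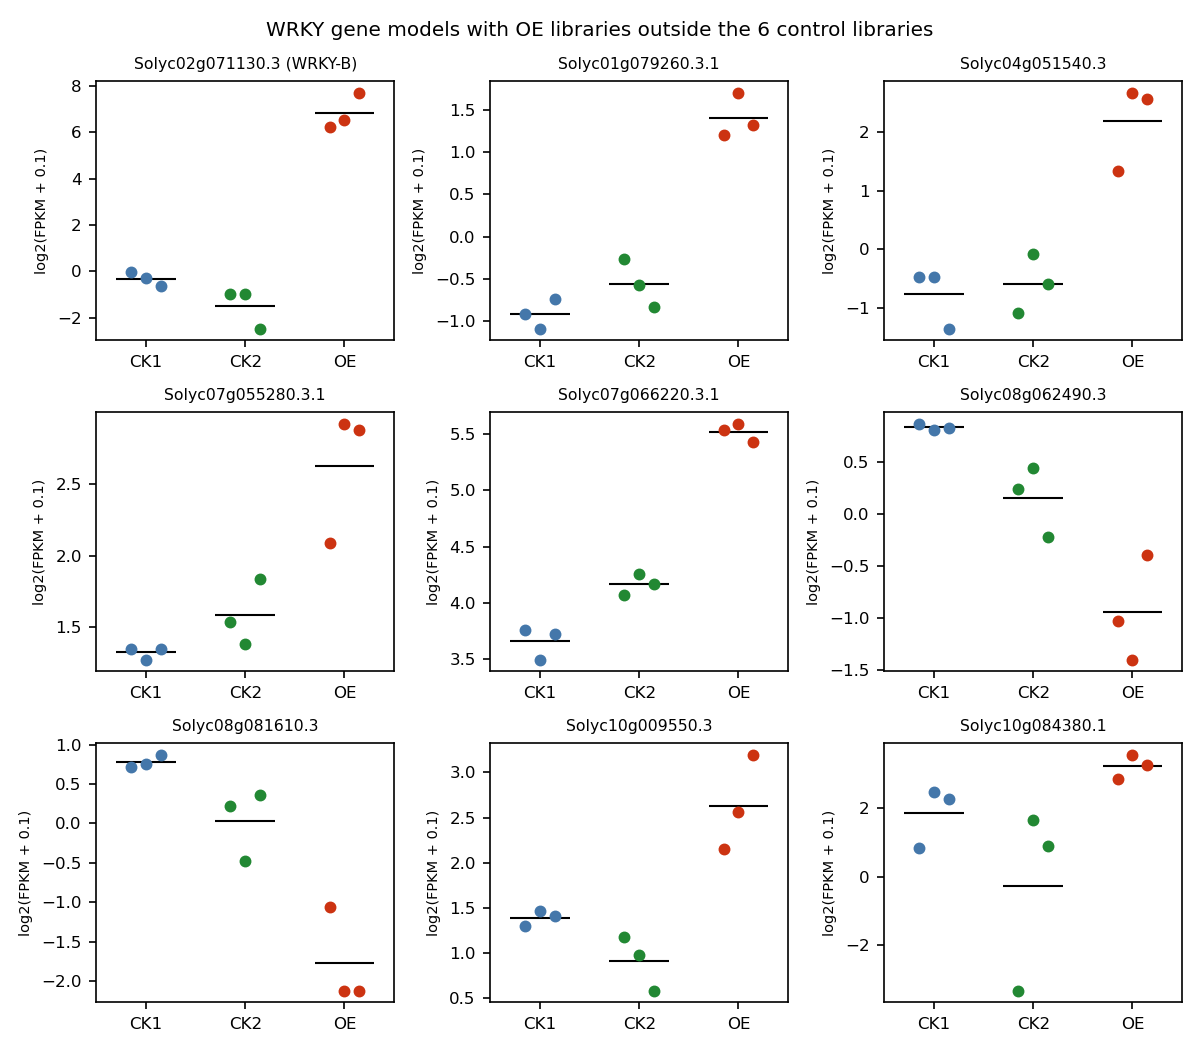
WRKY-B and the 8 other gene models whose 3 OE libraries lay all above or all below the 6 control libraries and that were called in both OE comparisons, as log2(FPKM + 0.1) in each library (points) with the mean of each set (lines), on a separate axis for each gene model. Solyc08g062490.3 and Solyc08g081610.3 are lower in OE and the other 7 gene models are higher, and the lowest point for Solyc10g084380.1 is the CK2 library listed at 0.

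In the lower direction 2 gene models met the same rule, 4.88% of the members beside 13% of all gene models, and both had low levels. Solyc08g081610.3 measured 1.54, 1.59 and 1.72 FPKM in CK1, 1.07, 0.62 and 1.18 in CK2, and 0.38, 0.13 and 0.13 in OE1, OE30 and OE9. The order CK1, CK2, OE had no overlap between neighbouring sets. Its log2 difference was −1.80 (standard error 0.40, adjusted p = 0.00743) against CK2 and −2.54 (standard error 0.35, adjusted p = 0.00125) against CK1 by limma-trend, and with log2(FPKM + 1) that against CK2 was −0.68 and no longer 2-fold.

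Solyc08g062490.3 showed the same order, with 1.72, 1.65 and 1.68 FPKM in CK1, 1.08, 1.26 and 0.76 in CK2, and 0.39, 0.28 and 0.66 in OE. The highest OE library lay close to the lowest CK2 library. The log2 difference was −1.77 (standard error 0.31, adjusted p = 0.00301) against CK1 and −1.10 (standard error 0.34, adjusted p = 0.0267) against CK2 by limma-trend. The second call was lost without CK2_1 (−1.05), CK2_2 (−0.95), OE1 (−1.05) or OE30 (−0.87), and after scaling to a sum of 1000000 (−0.94). With log2(FPKM + 1) neither difference was 2-fold, at −0.90 from CK1 and −0.50 from CK2.

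Across the family, 42 gene models had 3 or more libraries at 0.5 FPKM or above. Of these, 11 had all OE libraries above the 6 controls and 4 had all of them below, 35.7% in either direction beside 51.8% of all gene models at that level. Over all 26296 such gene models the shares were 29.3% above and 22.5% below, against 26.2% and 9.52% of the WRKY gene models. The other 4 above were Solyc02g032950.3, Solyc03g095770.3, Solyc07g056280.3 and Solyc07g066220.3, and the other 2 below were Solyc02g088340.3 and Solyc07g051840.3.1. With each library scaled to a sum of 1000000, the counts were 17 above and 2 below, beside 34.2% and 18.1% of all gene models. Over locus sums they were 9 and 3 of 34, beside 29.6% and 24.6% of all loci.

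OE had the highest mean of the 3 sets in 24 of the 42 gene models. The share of all gene models with OE highest was 42.8%, and the difference between these shares was not tested. The most frequent order, OE above CK1 above CK2, was found in 13 gene models, and OE above CK2 above CK1 in 11. OE was lowest in 7 gene models, with CK2 highest in 4 and CK1 highest in 3. All CK2 libraries lay below the other 6 in 11 gene models and above them in 5, beside 25.4% and 18.9% of all gene models. All CK1 libraries lay below the other 6 in 7 and above them in 4, beside 6.55% and 19.2% of all.

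Against CK2, 20 of the 42 WRKY gene models tested were called, 13 higher and 7 lower in OE. This was 47.6% of the members, beside 49% of all 24905 gene models tested, of which 25.8% were called higher and 23.2% lower, so the family was called about as often as the table as a whole. The median log2 difference was 0.51 over the members and 0.17 over all gene models. With each library scaled to a sum of 1000000 the members split into 16 higher and 5 lower, beside 31.5% and 20.3% of all gene models, whose median was then 0.39. With median-ratio scaling they split into 10 higher and 7 lower, beside 18.6% and 28% of all gene models, with a median of −0.15.

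In several of the called members, CK2 was the set that stood apart. Solyc08g067340.3 measured 0.77, 0.76 and 0.53 FPKM in CK2, 3.17, 3.84 and 2.04 in CK1, and 6.26, 5.96 and 3.80 in OE1, OE30 and OE9. CK2 was low, and OE9 fell within the range of CK1. The log2 difference from CK2 was 2.77 (standard error 0.27, adjusted p = 0.000194 by limma-trend) and that from CK1 was 0.82, not called. Solyc03g095770.3 measured 7.48, 6.98 and 7.64 FPKM in CK2, 15.6, 14.6 and 13.3 in CK1, and 23.5, 23.1 and 31.8 in OE, so that all 3 sets were apart. It was called against CK2 (1.80, standard error 0.15, adjusted p = 0.000100 by limma-trend) and stayed under 2-fold against CK1 (0.83).

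In the opposite direction, Solyc05g012770.3 measured 16.4, 14.5 and 15.7 FPKM in CK2, 6.63, 6.49 and 6.65 in CK1, and 7.46, 6.46 and 9.04 in OE. CK2 was high, and CK1 and OE overlapped. The log2 difference from CK2 was −1.02 (standard error 0.15, adjusted p = 0.00111 by limma-trend), just past 2-fold, and it fell short of 2-fold without CK2_1 (−0.98) or OE30 (−0.91), after scaling to a sum of 1000000 (−0.80) and with log2(FPKM + 1) (−0.94).

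Against CK1, 13 of 41 members tested were called, 9 higher and 4 lower in OE. This was 31.7% of the members, beside 39.2% of all 24448 gene models tested (17.5% higher and 21.8% lower). The median log2 difference was 0.20 over the members and 0.01 over all gene models. Without OE1, 19 members (46.3%) were called, beside 38.3% of all gene models. Scaling to a sum of 1000000 gave 15 members higher and 3 lower, beside 22.8% and 18.4% of all gene models, and median-ratio scaling gave 7 and 5, beside 14.6% and 24.2%. No WRKY gene model was called in opposite directions in the OE comparisons.

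Another 3 members, named here after their values were seen, were called against CK1 and not against CK2. Solyc07g005650.3.1 measured 3.31, 3.48 and 3.25 FPKM in CK1, 7.28, 6.60 and 6.40 in CK2, and 6.66, 7.21 and 8.37 in OE, with a log2 difference from CK1 of 1.12. Solyc04g072070.3 measured 3.57, 3.49 and 3.43 FPKM in CK1, 0.73, 1.08 and 1.23 in CK2, and 1.25, 1.08 and 2.27 in OE, a difference of −1.21 from CK1. Solyc05g015850.3 measured 1.41 to 2.47 FPKM in CK1, 0.45 to 0.81 in CK2 and 0.36 to 0.91 in OE, a difference of −1.34 from CK1. In each of them CK2 and OE overlapped and CK1 stood apart.

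**Figure D3:**
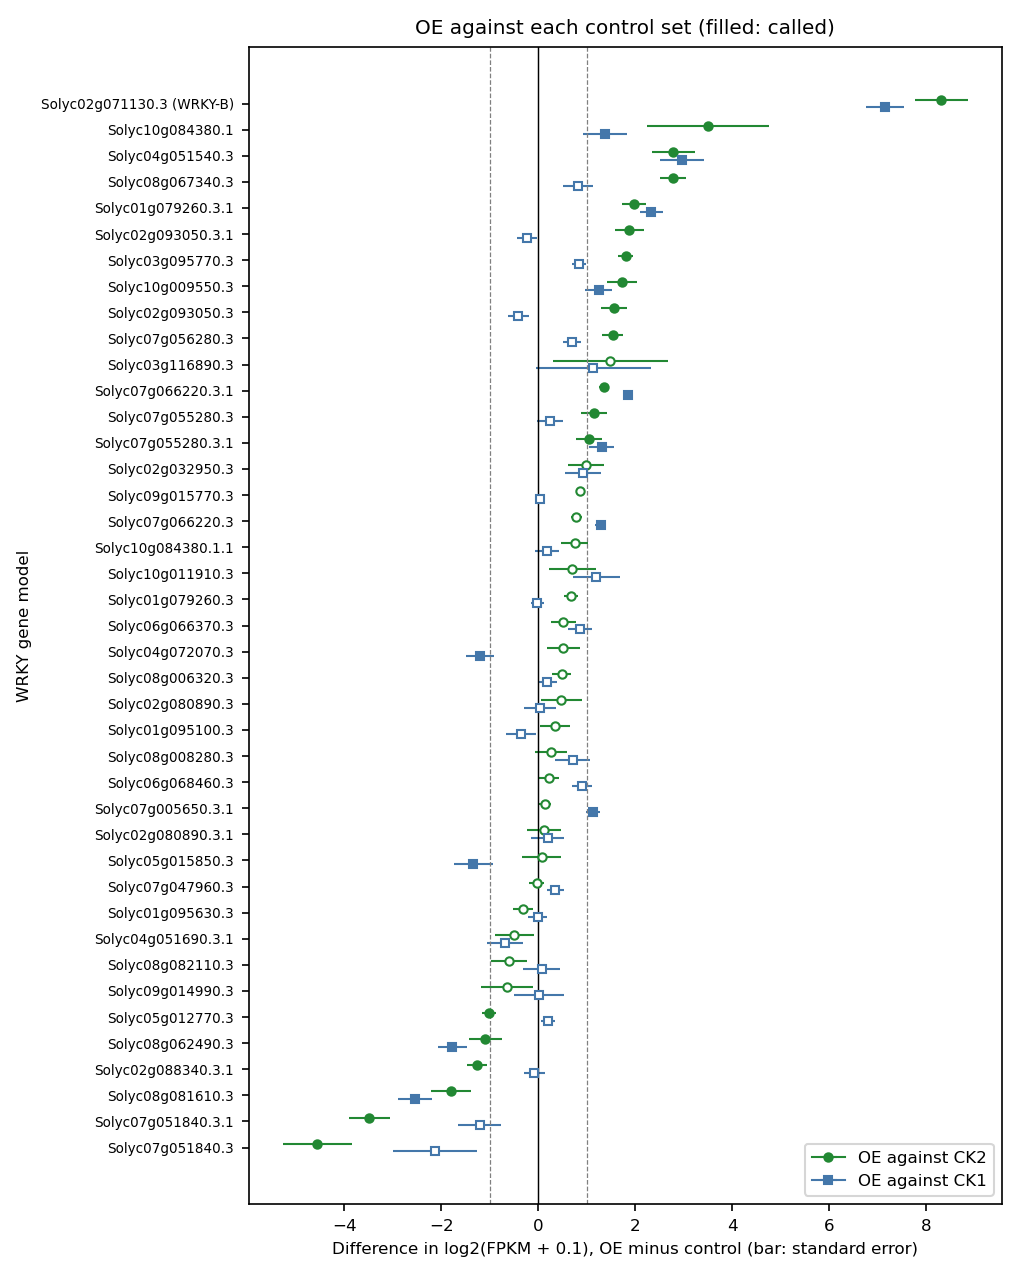
Difference in log2(FPKM + 0.1) between OE and CK2 (circles) and between OE and CK1 (squares) for 41 WRKY gene models, with standard errors as bars, dashed lines at 2-fold and filled symbols for calls. Solyc02g088340.3, listed at 0 in all OE libraries, is left out, and most members lie within 2-fold of CK1.

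Between the control sets, 10 of 42 members were called, 5 higher and 5 lower in CK2. This was 23.8% of the members, beside 27% of all 25268 gene models tested (13% higher and 14% lower). The median log2 difference was −0.12 over the members and −0.23 over all gene models. The control libraries varied little, and at an adjusted p alone, without the 2-fold threshold, 32 members (76.2%) passed by limma-trend, beside 69.6% of all gene models. The members higher in CK2 were Solyc05g012770.3 (1.22) and both gene models of Solyc02g088340 and Solyc07g051840. Those lower in CK2 were Solyc08g067340.3 (−1.96), Solyc04g072070.3 (−1.72), Solyc05g015850.3 (−1.41) and both gene models of Solyc02g093050. For WRKY-B the log2 difference of CK2 from CK1 was −1.17 (standard error 0.44, adjusted p = 0.0510 by limma-trend), which missed the threshold. It passed without CK2_1 (−1.41, adjusted p = 0.0445) or CK2_2 (−1.41, adjusted p = 0.0452).

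The loci with 2 gene models allowed a check of how FPKM was divided within a locus. The authors' counting could have split reads between such gene models, so their separate values are uncertain and the locus sum is given beside them. Of the 9 locus sums, 4 were called higher and 2 lower in OE than in CK2, 2 higher and 1 lower in OE than in CK1, and 2 higher and 1 lower in CK2 than in CK1. Of all locus sums tested, 48.5%, 39.1% and 27.6% were called in these comparisons. The 4 loci described next were chosen after their values were seen, for their large differences.

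Solyc02g088340 differed between the sets both in level and in its division. Solyc02g088340.3 measured 19.0, 17.7 and 18.8 FPKM in CK2 and 0.71, 0.72 and 0.24 in CK1, and it was listed at 0 in all 3 OE libraries. Solyc02g088340.3.1 (SL3.0 chromosome 2, 51097466 to 51108142, minus strand) measured 7.71, 7.41 and 7.74 FPKM in CK2, 3.14, 3.49 and 3.24 in CK1, and 2.66, 2.66 and 4.17 in OE. CK2 was thus high for both gene models, and only the second was listed above 0 in OE. The first held 70.5 to 71.2% of the locus sum in CK2 and 6.90 to 18.4% in CK1. The locus sums averaged 26.1 FPKM in CK2, 3.85 in CK1 and 3.16 in OE, with a log2 difference of OE from CK2 of −3.04 (standard error 0.19, adjusted p = 2.83e-05) and from CK1 of −0.30 (standard error 0.22, adjusted p = 0.258) by limma-trend. CK2 exceeded CK1 by 2.74 (standard error 0.08, adjusted p = 7.72e-08 by limma-trend).

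Solyc07g051840 was likewise highest in CK2, but its OE libraries also lay below CK1. Solyc07g051840.3 measured 8.48, 6.42 and 5.80 FPKM in CK2, 1.61, 2.18 and 0.44 in CK1, and 0.64, 0 and 0.24 in OE1, OE30 and OE9. Solyc07g051840.3.1 (SL3.0 chromosome 7, 60488974 to 60492741, plus strand) measured 17.4, 16.1 and 17.8 FPKM in CK2, 3.50, 2.91 and 4.00 in CK1, and 0.73, 1.45 and 2.68 in OE. For the second gene model the 3 sets did not overlap, while for the first OE1 fell within CK1. Against CK2 the log2 differences were −4.56 (standard error 0.71, adjusted p = 0.00156) and −3.49 (standard error 0.42, adjusted p = 0.000517) by limma-trend. Against CK1 neither gene model passed the test (−2.13, adjusted p = 0.0724, and −1.21, adjusted p = 0.0521, by limma-trend), but their sum did (−1.39, standard error 0.30, adjusted p = 0.00729).

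Solyc02g093050 had the opposite pattern, low in CK2 alone. Solyc02g093050.3 measured 19.1, 20.2 and 14.6 FPKM in CK1, 4.27, 5.91 and 3.52 in CK2, and 13.2, 10.3 and 17.5 in OE. Solyc02g093050.3.1 (SL3.0 chromosome 2, 54634844 to 54636846, plus strand) measured 18.5, 19.6 and 25.4 FPKM in CK1, 5.70, 3.18 and 6.02 in CK2, and 14.6, 16.8 and 23.1 in OE. OE overlapped with CK1 for both gene models and lay above CK2. The locus sum was higher in OE than in CK2 by 1.70 (standard error 0.17, adjusted p = 0.000200), did not pass the test against CK1 (−0.32, adjusted p = 0.129), and was lower in CK2 than in CK1 by 2.03 on the log2 scale (a difference of −2.03, standard error 0.05, adjusted p = 4.48e-08), by limma-trend.

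Solyc07g066220, already described by gene model, averaged 21.2 FPKM in CK1, 30.1 in CK2 and 66.7 in OE as a locus sum. Its sum was higher in OE by 1.15 against CK2 (standard error 0.08, adjusted p = 3.43e-05) and by 1.65 against CK1 (standard error 0.07, adjusted p = 1.24e-05) by limma-trend. The share of the sum in Solyc07g066220.3 was 37.6 to 45.7% in CK1, 39.5 to 41.8% in CK2 and 29.3 to 35.6% in OE. Both gene models were above every control in OE, and Solyc07g066220.3.1 held a larger share of the sum there.

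**Figure D4:**
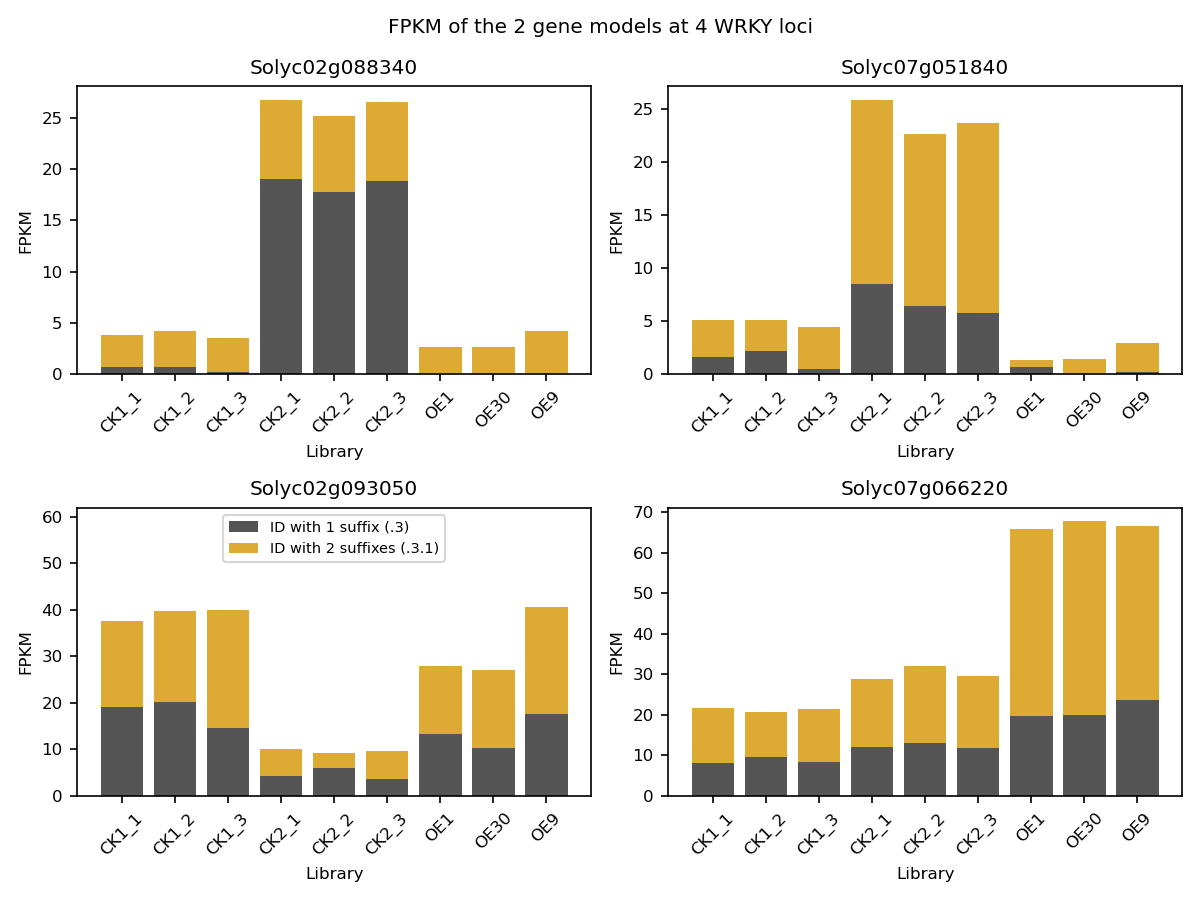
FPKM in each library at 4 WRKY loci with 2 gene models, stacked so that the bar height is the locus sum, with the gene model whose ID has 1 suffix in grey and the one with 2 suffixes in yellow. Solyc02g088340 and Solyc07g051840 are highest in CK2, Solyc02g093050 is lowest in CK2, and Solyc07g066220 is highest in OE.

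The OE libraries differed among themselves, and members were more often highest in OE9 than gene models of the whole table, a difference that was not tested. OE9, which had the most WRKY-B, was the highest OE library in 31 of the 42 gene models (73.8%), beside 39.4% of all 26296 gene models. OE30 was highest in 6 and OE1 in 4, beside 28.3% and 25.8% of all gene models, with ties not counted. With each library scaled to a sum of 1000000, OE9 was still highest in 31, beside 38.2% of all. It was highest in 29 of 34 locus sums, beside 40.7% of all locus sums. With WRKY-B left out, OE9 was highest in 30 of 41 gene models, beside 39.4% of all.

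OE9 was at least 2-fold above OE1 in 12 of 42 gene models, beside 7.31% of all gene models. The median log2 ratio of OE9 to OE1 was 0.61 over the members and 0.06 over all gene models. These are differences between single libraries, with no replicate of each, so no test was made, and whether they follow the level of WRKY-B was not tested.

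The widest spread was in Solyc03g116890.3, singled out after its values were seen. It measured 0.86 FPKM in OE1, 10.9 in OE30 and 29.7 in OE9, against 2.77 to 3.18 in CK1 and 2.21 to 2.46 in CK2. OE1 lay below every control library and the other OE libraries above them. The mean differences, 1.48 against CK2 (standard error 1.19, adjusted p = 0.305) and 1.13 against CK1 (standard error 1.18, adjusted p = 0.433), did not pass limma-trend. Solyc02g032950.3 had 5.89, 7.5 and 16.5 FPKM in OE1, OE30 and OE9, all above the 4.30 to 4.92 FPKM of the controls, and was not called (0.97 against CK2, adjusted p = 0.0563, and 0.91 against CK1, adjusted p = 0.0725, by limma-trend). Solyc07g066220.3.1, which had the highest level in OE after WRKY-B among the members called higher, was alike in the 3 libraries, at 42.8 to 47.9 FPKM.

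**Figure D5:**
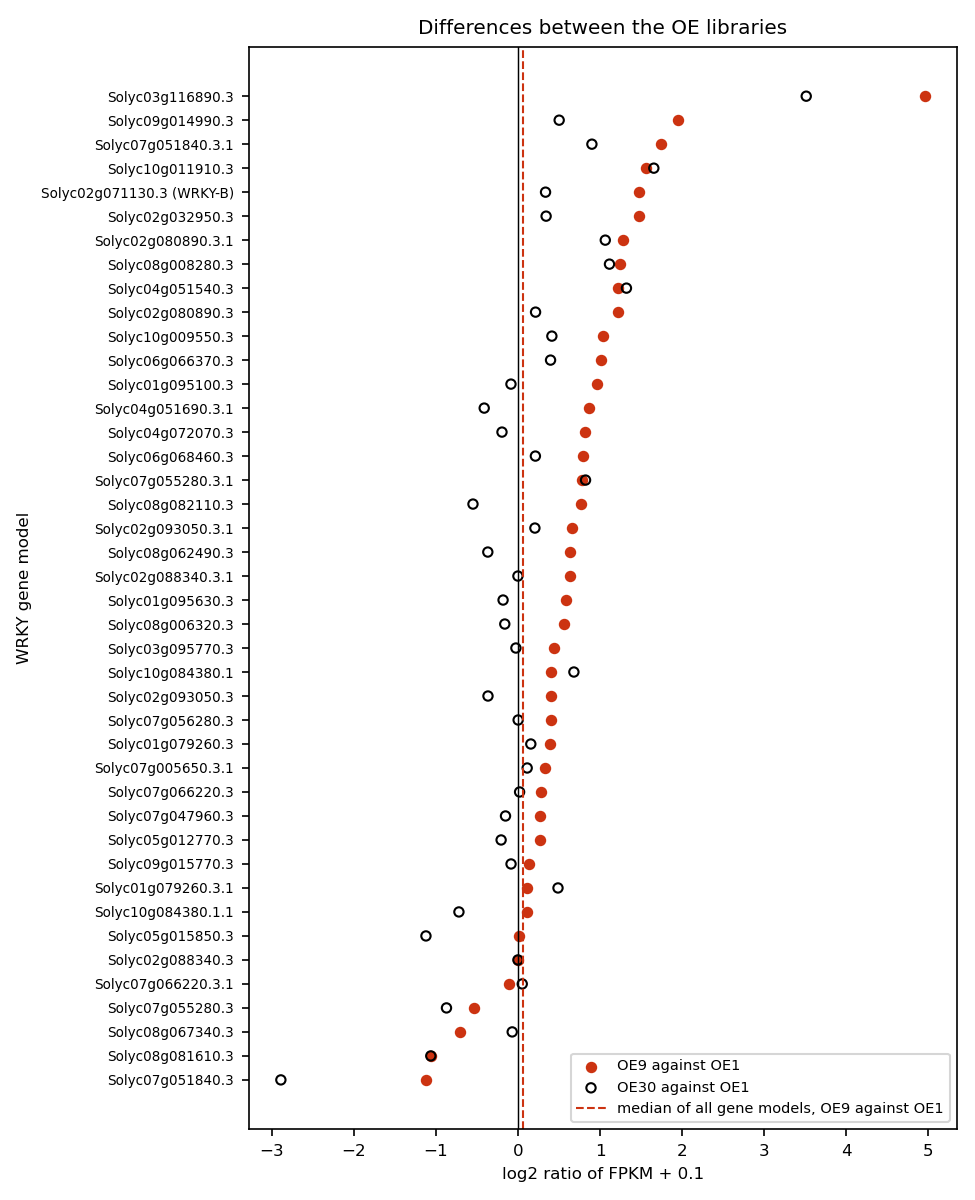
Log2 ratio of FPKM + 0.1 of OE9 to OE1 (filled) and of OE30 to OE1 (open) for the 42 WRKY gene models that reached 0.5 FPKM in 3 or more libraries, with the median of all gene models for OE9 to OE1 as a dashed line. The median over the members is 0.61, against 0.06 over all gene models, and Solyc03g116890.3 lies farthest to the right.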

How the data were processed

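For each gene model and library the authors deposited an FPKM value with 2 decimals. RSEM 1.2.12, HISAT2 2.0.4, DESeq2 1.4.5 and Bowtie2 2.2.5 appear in the submitters' processing notes, without roles. The 27 columns of the authors' own comparisons (fold changes, p-values and q-values) were not used. Positions, given for 10 of the 50 WRKY gene models, are on SL3.0.

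Differences were tested with limma-trend (limma 3.58.1, R 4.3.3) on log2(FPKM + 0.1), since FPKM values are not counts. The pseudocount understates changes of low genes, and where a library is listed at 0 the size of the difference depends on it. Each fit held the 6 libraries compared, without covariates, and the gene models that reached 0.5 FPKM in 3 or more of them. Calls required a fold change of 2 and a Benjamini-Hochberg adjusted p under 0.05 over all gene models tested. The script was tested on simulated data, with differences above 2-fold added to gene models that were not low. The check was on their mean estimate, so it does not cover low members, smaller differences or the rate of false calls. Other steps used Python 3.11.15. Depth is unknown, so no counting error is given. Precision rests on the spread within the sets of a fit, which limma-trend adjusts towards that of gene models at similar levels.

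The members and lists were chosen with earlier results of these data known. Values in every library were planned for WRKY-B, for members outside the range of the controls and called in both OE comparisons, for the 5 highest means, for members called in opposite directions, and for up to 6 called members per comparison and direction with the largest changes and at least 5 FPKM on average in the higher set. Alternatives were log2(FPKM + 1), no filter, all 9 libraries in 1 fit, pooled controls, other scalings, locus sums, no fold threshold, leaving out each library, and a replicate block between the control sets. Counts of OE9 and of the highest set were given alternatives after seeing the data. Protein and promoter motifs were not searched, since no table used here pairs these IDs with sequences.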

Additional observations from a re-analysis of the deposited data

How the results depend on the processing

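The 34 called differences of 18 members named by rule other than WRKY-B were recomputed under the alternatives. The 3 abundant members without a call were not. Of 433 values, 391 kept the direction and the call, 42 kept the direction but lost the call, and none reversed. Of the 34 differences, 20 kept their call throughout. With the 6 control libraries pooled, Solyc02g088340.3.1 (−0.68), Solyc02g093050.3 (0.57), Solyc02g093050.3.1 (0.82), Solyc05g012770.3 (−0.41) and Solyc10g084380.1 (2.43) were no longer called. When each library was left out in turn, 17 to 20 members were called against CK2, beside 46.1% to 49.9% of all gene models. Against CK1 the number was 11 to 19, beside 35.9% to 40.9% of all. Between the control sets it was 10 to 12, beside 26.7% to 27.2% of all. With log2(FPKM + 1) the numbers in these comparisons were 15, 9 and 9, beside 40.3%, 31.2% and 20% of all gene models. At an adjusted p alone, 32 members passed between the control sets by limma-trend, 15 higher and 17 lower in CK2. Of all gene models, 25.1% passed as higher and 44.6% as lower.

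Replicate numbers of the control sets did not pair the libraries, as deviations of same-numbered libraries had correlations of −0.02 to 0.01. With the replicate block 12 members were called in place of 10, beside 27% of all gene models with and without the block. In that fit WRKY-B, at −1.17 between CK2 and CK1, passed (adjusted p = 0.0297 by limma-trend). It passed too in the fit on locus sums (−1.17, adjusted p = 0.0382), which tested fewer features, and its leave-one-out values ranged from −1.41 (without CK2_1 or CK2_2) to −0.68 (without CK2_3). No paired analysis was possible for the OE comparisons because the sets share fewer than 2 numbers.

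With 3 libraries against 3, an exact permutation test cannot go below p = 0.1. As depth is unknown, no detection limit can be given for members listed at 0. How reads were divided between gene models of a locus is not stated.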
